A study of Caenorhabditis elegans with 15 samples.

Results

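The 9 genes described here, cpr-1, cpr-3, cpr-4, cpr-5, cpr-6, asp-1, asp-2, asp-3 and asp-4, encode cathepsin-type proteases of the nematode Caenorhabditis elegans. They were grouped under the name of gut cathepsins, which is not a result for each of them. They were taken by name from a table of 47111 genes, and all 9 were found and passed the filter on low counts that left 17217 genes for testing. They were selected on measured values of this study, their CPM levels over the genotypes and in particular the rise of cpr-6 in the allele ust223, so every value that involves ust223 is given as a description with no test. The other genotypes were among those levels, so the p-values of members in comparisons between them are not independent of the choice either. The animals were young adults grown at 20 °C on the bacterial food OP50. They were the laboratory wild type N2 and 4 strains that differ from it, as far as the labels say, by 1 allele of puf-8: ust221 (coded MUT-4A in the labels), ust222 (MUT-4N), ust223 (MUT-8G) and ok302. Each genotype had 3 poly-A RNA libraries, 15 in all, of 20969800 to 29352254 counted reads. The codes are not explained in the labels, and PUF-8 is a Pumilio-family protein that binds the 3′ UTRs of mRNAs.

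Cathepsins are proteases of acidic compartments. The cpr genes encode cathepsin B-like enzymes of the papain family, which cut with a catalytic cysteine, and the asp genes encode cathepsin D-like or pepsin-like enzymes, which cut with a pair of aspartates. Both kinds are made as inactive precursors and matured at low pH in lysosomes or, in nematodes, also released into the gut lumen, where they digest bacterial protein. cpr-1 was described as a gut cysteine protease gene and asp-1 as an intestinal aspartyl protease gene of the worm, and asp-3 and asp-4 are known for their part in the necrotic death of its neurons.

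These are whole-animal samples, so fewer cells of a type and less RNA per cell cannot be told apart, and expression in the gut was not measured separately. Levels are given as CPM, the reads of a gene scaled to a common library size, with TMM factors to even out composition. The mean log2 CPM of 20 intestinal marker genes lay between 4.54 and 5.17 in all 15 libraries, and their summed CPM between 1192 and 2356. This mean does not show whether single genes of the list kept their level. Other marker lists set 3 libraries apart from the rest, and these 3 cross genotype. In N2 replicate 1 and ust222 replicates 1 and 3 the mean log2 CPM of 29 sperm genes was between -1.30 and -1.15, with 8 to 12 of the 29 genes at 0 counts, against 1.18 to 3.12 in the other 12 libraries. In the same 3 libraries 28 molting and larval cuticle genes averaged 3.92 to 4.18, and 10 pharynx genes 5.14 to 5.85. In N2 replicates 2 and 3 the molting list stood at 1.49 and 1.56. It stood at 0.77 to 1.91 in ust221, at 1.32 in ust222 replicate 2, at 2.46 to 3.24 in ust223 and at 4.42 to 4.89 in ok302. Results are therefore given for all 15 libraries and for the 12 that remain without these 3. The 12 hold only replicates 2 and 3 of N2 and replicate 2 of ust222. The libraries left out were set apart on values of this study, so p-values in the 12 are not independent of that choice. With 1 ust222 library, the filter on low counts in the 12 asked for only 1 library, so genes high in 1 group alone could enter. The puf-8 transcript itself had 3 to 11 reads in the ok302 libraries and 737 to 5008 in the others.

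Within the genome the members are scattered. By the coordinates in the deposited table, cpr-1 (WBGene00000781, V:11975515-11976756, plus strand), cpr-3 (WBGene00000783, V:15296853-15298700, minus), cpr-4 (WBGene00000784, V:6614674-6615845, plus) and cpr-5 (WBGene00000785, V:1132598-1134036, minus) lie on chromosome V. So do asp-1 (WBGene00000214, V:19049461-19050825, minus) and asp-2 (WBGene00000215, V:9203077-9204734, plus). On X lie cpr-6 (WBGene00000786, X:6607203-6609045, plus), asp-3 (WBGene00000216, X:6791064-6792715, plus) and asp-4 (WBGene00000217, X:13218977-13221462, minus). The table names no genome build. Of the 9, 2 (cpr-5 and asp-2) had the same start and end in Ensembl release 115. In that annotation each member had 1 transcript, asp-1 with 1 exon and cpr-6 with 8. The closest neighbour from the protease lists was cpr-8, 449 bases from cpr-5; asp-15 lay 4608 bases from asp-1 and cpr-9 lay 26272 bases from cpr-1. Overlap with other genes was limited to opposite-strand neighbours of asp-2 (74 bases shared with inx-10, at most 250 reads), asp-4 (33 bases shared with R12H7.4, at most 23 reads) and cpr-4 (21 bases shared with the small RNA gene 21ur-14330, 0 reads).

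The 9 genes together took between 0.557% of the reads of a library, in N2 replicate 2, and 2.39%, in ok302 replicate 3. On a scale corrected for gene length (CPM per kilobase), asp-1 had the highest level of the 34 tested proteases on the lists, with a mean of 3459.9 over the 15 libraries. asp-3 followed within the members at 1203 and cpr-6 at 1058, while cpr-3 was the lowest at 23.7. The 9 members held 48.5% to 59.6% of the summed CPM per kilobase of those 34 proteases. The ratio of the highest to the lowest CPM among the 15 libraries was 26.2 for cpr-1 and 17.4 for cpr-4, and between 2.86 and 6.91 for the other 7. The members therefore fall into a pair that varied strongly and a larger group that varied less.

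**Figure D1:**
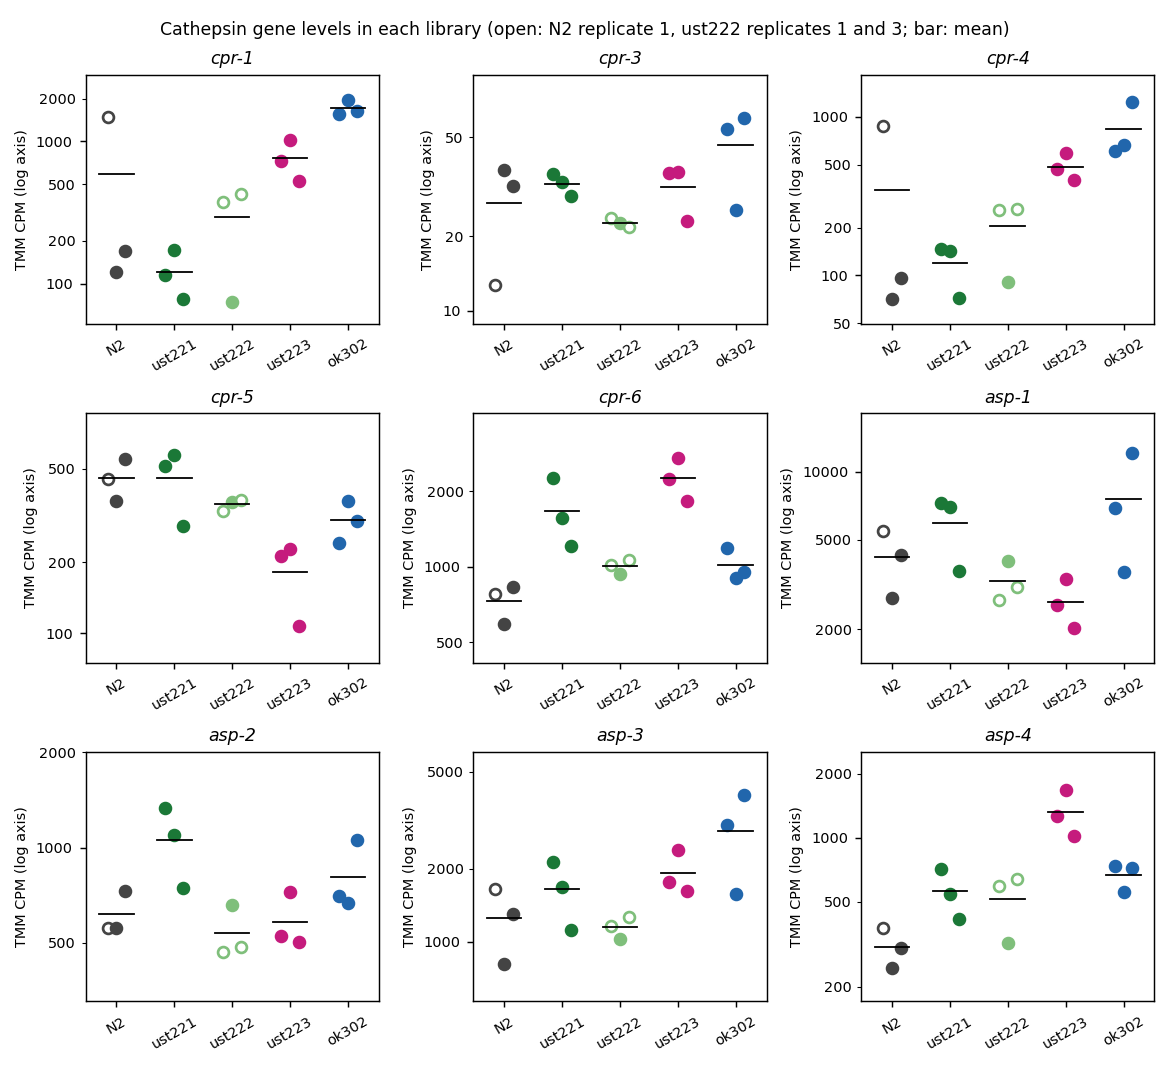
TMM-scaled CPM of each cathepsin gene (log axis) in the 3 libraries of each genotype; each point is 1 library and each bar the genotype mean, and open circles are N2 replicate 1 and ust222 replicates 1 and 3. N2 replicate 1 stands far above the other N2 libraries in cpr-1 and cpr-4 and below them in cpr-3, with its values in the other genes within or near their range, cpr-6 is highest in ust223 and ust221, and asp-4 is highest in ust223.

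Among the cathepsin B-like genes, cpr-6 was the member chosen for its rise in ust223. Its CPM was 779.7, 593 and 826 in N2, and 2243, 2723 and 1827 in ust223. In ust221 it was 2252, 1560.1 and 1209. Every library of these 2 alleles lay above every N2 library. In ust222 cpr-6 stood at 1013, 932 and 1064 CPM, and in ok302 at 1187, 902 and 949.9. On this TMM scale these 6 libraries also lay above N2 but below every library of ust221 and ust223. As a plain share of the reads of a library, cpr-6 took 0.133%, 0.107% and 0.103% in ok302. In ust221 it took 0.155%, 0.119% and 0.124%, so without TMM factors these 2 genotypes overlapped. In order of mean level the genotypes ran N2, ust222, ok302, ust221, ust223. The libraries of ust222 and ok302 overlapped, and so did those of ust221 and ust223. In ust223 the log2 fold change against N2 was 1.63 ± 0.24 (± SE), and against ok302 and ust222 it was 1.16 ± 0.24 and 1.17 ± 0.24.

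In ust221, cpr-6 was the member that rose against N2 (log2 fold change 1.19 ± 0.24, edgeR adjusted p = 0.0296, n = 3 libraries per genotype; 1674 ± 531 against 733 ± 124 CPM, mean ± SD). It was 1 of 9 members called there, 1 up and 0 down, in a comparison where 1.79% of all tested genes were called. The same N2 libraries served to choose cpr-6, so this value is not independent of the choice. Separate cultures are not stated in the labels, and the p-values then measure only how far the libraries of a group scatter, which can be technical scatter. The call did not hold when N2 replicate 2 (1.06, adjusted p = 0.0743), N2 replicate 3 (1.28, 0.0671), ust221 replicate 1 (1.01, 0.0795) or ust221 replicate 2 (1.28, 0.0693) was left out, nor in a fit to only the 6 libraries (1.21, 0.208), by edgeR in each case. Fitted to the 12 libraries, the rise was 1.30 ± 0.29 (edgeR adjusted p = 0.0159, where 13.6% of genes were called). Against ok302, cpr-6 in ust221 was higher by 0.72 ± 0.24 (edgeR adjusted p = 0.0525), and by 0.78 ± 0.25 in the 12 libraries (adjusted p = 0.0233). This difference from ok302 rests on the TMM scaling, since the plain shares of reads overlapped. For ust222 and ok302 against N2 the 95% intervals of the log2 difference of cpr-6 ran from -0.06 to 0.96 and from -0.04 to 0.98.

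cpr-1 and cpr-4 behaved differently from cpr-6 and much like each other. cpr-4 is known in the worm also as a secreted protease of the response to radiation. In N2, cpr-1 had 1477, 122 and 169 CPM and cpr-4 had 873, 70.9 and 96.2. N2 replicate 1 alone was high, 10.14 times the mean of the other N2 libraries for cpr-1 and 10.5 times for cpr-4. In ust222, cpr-1 had 378, 75.0 and 431 CPM and cpr-4 had 257, 91.1 and 263. Here replicates 1 and 3 were high, by 5.39 and 2.85 times replicate 2. These are the same 3 libraries that the sperm, molting and pharynx markers set apart. For the other 7 members the corresponding ratios lay between 0.369 and 1.92. In ust221 the values were 115, 172 and 77.9 for cpr-1, and 146, 143 and 71.7 for cpr-4. In ust223 they were 735, 1025 and 525, and 466, 592 and 400.2. The highest group was ok302, with 1572, 1969 and 1631 for cpr-1 and 605, 662 and 1233 for cpr-4. ok302 did not overlap ust223, the next genotype in order, for either gene. For both genes every ust223 library also lay above every library of ust221 and ust222, while N2 overlapped all 3 of these alleles.

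In the 15 libraries neither gene passed the test in ok302 against N2 (cpr-1 1.55 ± 0.80, edgeR adjusted p = 0.178; cpr-4 1.27 ± 0.75, adjusted p = 0.237). Without N2 replicate 1 alone, cpr-1 was higher in ok302 by 3.57 (edgeR adjusted p = 0.00127) and cpr-4 by 3.33 (0.000459). Both genes are high in that library, so p-values without it are not independent of its removal. Of N2 only 2 libraries remain, here and in the 12. The 12 libraries gave log2 fold changes of 3.57 ± 0.37 (edgeR adjusted p = 2.6e-05) and 3.33 ± 0.39 (4.6e-05). In that fit 49.9% of genes were called and the median gene shifted by 0.39 rather than 0.10. In ust221 the log2 fold change of cpr-1 against N2 was -2.28 ± 0.82 in the 15 libraries (edgeR adjusted p = 0.143; called with DESeq2, -2.39, adjusted p = 0.0216) and -0.20 ± 0.32 in the 12 (0.694). That of cpr-4 turned from -1.53 ± 0.76 (edgeR adjusted p = 0.265) to 0.58 ± 0.34 (0.26). In ust223 the values against N2 were 0.37 ± 0.79 for cpr-1 and 0.49 ± 0.74 for cpr-4, and 2.49 ± 0.35 and 2.64 ± 0.37 in the 12 libraries.

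The comparisons of ust221 with ok302 use none of the 3 libraries. There both genes were lower in ust221, cpr-1 by a log2 fold change of -3.82 ± 0.88 (edgeR adjusted p = 0.0142; 122 ± 47.5 against 1724 ± 214 CPM) and cpr-4 by -2.79 ± 0.79 (0.0307; 120.5 ± 42.3 against 834 ± 347 CPM). They were the 2 of 9 members called, both lower, where 16.7% of genes were called and 5.85% were lower. The fit shares its estimate of spread with the 3 libraries. The SE in the 12 libraries fell to 0.32 for both, with log2 fold changes of -3.77 (edgeR adjusted p = 1.3e-05) and -2.74 (6.5e-05), where 41% of genes were called. In the fits to the other 14 libraries, the call of cpr-1 was lost without ust221 replicate 1 (-3.86, edgeR adjusted p = 0.0815). That of cpr-4 was lost without any of the 6 libraries in turn (-3.06 to -2.34, adjusted p 0.056 to 0.115). DESeq2 gave no adjusted p for cpr-4 there. ust222 against ok302 gave -2.55 ± 0.83 for cpr-1 (edgeR adjusted p = 0.0508) and -2.03 ± 0.77 for cpr-4 (0.0837). With ust222 replicate 2 as the lone ust222 library the values were -4.41 for cpr-1 and -3.08 for cpr-4, given as a description without a test. The molting and cuticle list, at 87.1 to 168 CPM summed in ust221 and 1032 to 1361 in ok302, differed between these groups in the same direction as cpr-1 and cpr-4. Of its 28 genes, 20 were lower in ust221. Of the 20 intestinal marker genes 3 were higher in ust221 and 0 lower, where 1870 of all 17217 genes were higher. The part of these 2 lists in the result was not tested.

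**Figure D2:**
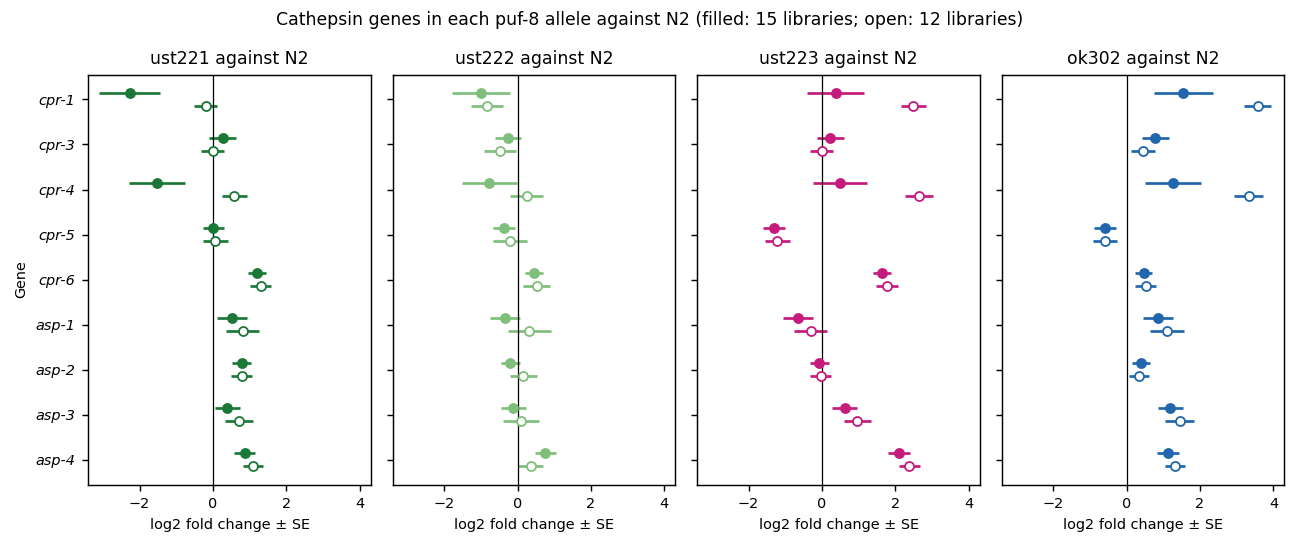
Log2 fold change against N2 (± SE) of each cathepsin gene in each puf-8 allele; filled circles are the fit to 15 libraries and open circles the fit without N2 replicate 1 and ust222 replicates 1 and 3. In ok302 the value of cpr-1 goes from 1.55 to 3.57 between the fits, while cpr-6 moves by less than its SE in every panel.

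The remaining cathepsin B-like members, cpr-3 and cpr-5, were called in none of the 6 comparisons by edgeR in the 15 libraries. cpr-3 is the least abundant of the 9. It had 12.7, 36.8 and 31.8 CPM in N2, 35.4, 33.0 and 29.04 in ust221, 23.6, 22.6 and 21.7 in ust222, 35.7, 36.2 and 23.1 in ust223, and 54.1, 25.5 and 59.7 in ok302. Neighbouring genotypes overlapped at each step, and the log2 difference between ok302 and N2 had a 95% interval from -0.01 to 1.57. cpr-5 had 451, 364 and 548 CPM in N2, 515, 572 and 285 in ust221, 330.2, 362 and 369 in ust222, and 243, 366 and 299 in ok302. In ust223 it had 212, 228 and 107 CPM, below all libraries of the other 4 genotypes, and its log2 fold change against N2 was -1.32 ± 0.30. Among the members, cpr-5 alone thus lay lower in every ust223 library than in every N2 library, while cpr-6 and asp-4 lay higher in every one. Such separation was found in 5.2% of all tested genes downwards and 8.68% upwards, and 1.35% of genes were called in that comparison, but nothing is read from this, since ust223 entered the choice of genes.

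Of the aspartyl proteases, asp-3 and asp-4 rose in ok302. asp-4 had 377, 243 and 302 CPM in N2 and 736, 555 and 724 in ok302, with no overlap (1.13 ± 0.29, edgeR adjusted p = 0.0143; 308 ± 67.0 against 672 ± 101 CPM). asp-3 had 1646, 813 and 1296 CPM in N2 and 3013, 1574 and 4003 in ok302, where replicate 2 lay just below the highest N2 library (1.19 ± 0.35, edgeR adjusted p = 0.0251; 1252 ± 418 against 2863 ± 1221 CPM). These were 2 of 9 members called, both higher, where 23.8% of all tested genes were called and 8.45% were higher. In 3 of the 9 members (cpr-1, cpr-6 and asp-4) every ok302 library lay above every N2 library, as in 25% of all genes. The calls of both asp genes were lost without N2 replicate 2 (0.96 for asp-3 and 0.98 for asp-4), N2 replicate 3 (1.21 and 1.10), ok302 replicate 1 (1.01 and 0.92) or ok302 replicate 3 (0.73 and 0.93), and with only the 6 libraries (1.06 and 1.00), at edgeR adjusted p of 0.0543 to 0.23. Both were called in the 12 libraries (1.45 ± 0.39, edgeR adjusted p = 0.00824; 1.31 ± 0.27, 0.0019), so that 4 of 9 members, with cpr-1 and cpr-4, were higher in ok302, in a fit where 26.2% of all genes were higher. That count rests in part on leaving out N2 replicate 1, where cpr-1 and cpr-4 are high. In the 15 libraries 4 of the 20 intestinal marker genes were higher in ok302 than in N2 and 3 were lower. Of all 17217 genes, 1454 were higher and 2650 lower. Marker lists of other tissues also differed between ok302 and N2 in the 15 libraries. Of 30 oocyte and eggshell genes, 28 were lower in ok302 and 0 higher (median -1.45; 6903 to 9032 CPM summed against 15581 to 21602). Of 29 sperm genes 5 were higher (median 1.37; 367 to 427 CPM against 75.6 to 356), of 28 molting and cuticle genes 9 (median 1.22; 1032 to 1361 CPM against 128 to 1934) and of 9 male soma genes 2 (median 2.33; 24.03 to 31.4 CPM against 5.16 to 7.90), and none of these 3 lists had a gene called lower. The part of these lists in the results for ok302 was not tested.

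asp-4 was highest in ust223, at 1267, 1681 and 1017 CPM, above all 12 libraries of the other genotypes and with a log2 fold change against N2 of 2.10 ± 0.30. The same gene stood at 717, 545 and 417 CPM in ust221 and at 591, 321 and 643 in ust222. For ust221 against N2 this was 0.86 ± 0.29 (edgeR adjusted p = 0.12), and 1.10 ± 0.27 in the 12 libraries (0.0232). For ust222 against N2 it was 0.75 ± 0.29 (0.586), and 0.36 ± 0.35 in the 12 libraries (0.717). asp-3 stood at 2125, 1686 and 1117 CPM in ust221, at 1160.3, 1031 and 1261 in ust222 and at 1761, 2387 and 1624 in ust223. It was lower in ust222 than in ok302 (-1.31 ± 0.35, edgeR adjusted p = 0.0233), with no overlap. That was the 1 member of 9 called in that comparison, in which 16.9% of genes were called and 9.25% were lower. Without overlap 5 of 9 members were lower there (cpr-1, cpr-3, cpr-4, asp-2 and asp-3), as were 27.8% of all genes. The value for asp-3 in the 12 libraries was -1.36 ± 0.51 (edgeR adjusted p = 0.057). The call was also lost without ust222 replicate 1 (-1.32, 0.068), ust222 replicate 3 (-1.16, 0.0939), ok302 replicate 1 (-1.01, 0.127) or ok302 replicate 3 (-0.73, 0.233), by edgeR.

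asp-1 and asp-2 were called in none of the 6 comparisons by edgeR in the 15 libraries. asp-1, the most abundant member, had 5454, 2772 and 4296 CPM in N2 and 7275, 6957 and 3633 in ust221. In ust222 it had 2697, 4042 and 3102 CPM, in ust223 2579, 3338 and 2039, and in ok302 6926, 3610.1 and 12124. Neighbours overlapped at every step of the order of genotypes, though every ust223 library lay below every library of ust221 and ok302. The difference between ust222 and ok302 was -1.20 ± 0.42 (edgeR adjusted p = 0.0626). Over the alternatives its adjusted p ran from 0.0248 with DESeq2 to 0.518 without ok302 replicate 3 with edgeR. Within ok302, replicate 3 was the highest library of the 15 and replicate 2 lay within the N2 range. asp-5 and asp-6, aspartyl proteases outside the 9, had the same order of ok302 libraries, at 2480.3, 1085 and 3596 CPM and at 5201, 2346 and 6981 CPM. asp-2 had 559, 558 and 729 CPM in N2, 1334, 1098 and 748 in ust221, 466, 659 and 484 in ust222, 526, 724 and 501 in ust223, and 701, 671 and 1053 in ok302. Every ust221 library exceeded every N2 library, but the difference was 0.79 ± 0.26 with an edgeR adjusted p of 0.113 (0.0223 with DESeq2). With cpr-6 and asp-4 it made 3 of 9 members without overlap in that direction, against 11.2% of all genes.

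No member was called between ust222 and N2 or between ust221 and ust222. In these comparisons 0.00581% and 0.0174% of all genes were called with edgeR. At an unadjusted p under 0.05, edgeR counted 1 member in the first (asp-4) and 2 in the second (cpr-6 and asp-2), where 7.99% and 21.6% of all genes lay under that threshold. DESeq2 called 0 and 1, the latter being asp-2 (0.87, adjusted p = 0.0129). The share of all genes that DESeq2 called is not given here, so nothing is read from these 2 counts. The comparisons with N2 share the same 3 N2 libraries and those with ok302 the same 3 ok302 libraries, so their values are set side by side and not counted as separate evidence.

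Taken over the 15 libraries, the members did not share 1 profile. Likeness was measured as the root mean square difference of log2 CPM, after each gene was centred on its own mean, over the 15 libraries. Since these share genotype, depth and the 3 libraries set apart, the measure is descriptive. The closest pairs of members were cpr-6 with asp-4 (0.40), asp-1 with asp-2 (0.42), cpr-3 with asp-2 (0.49) and cpr-1 with cpr-4 (0.50), and the farthest were cpr-1 with cpr-5 (1.92). Among 7966 other genes with a mean of at least 10 CPM, the nearest to cpr-6 was lipl-5, a lysosomal lipase gene (0.18). It was followed by perm-4, an eggshell gene (0.23), tbh-1, the tyramine hydroxylase of octopamine synthesis (0.26), cdr-6, of a cadmium-responsive family (0.27), and cpz-1, a cathepsin Z gene (0.27). The median gene lay at 0.73.

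For the other members the nearest genes were as follows. F37H8.5, a gene with the domain of a lysosomal thiol reductase, and the lectin gene clec-65 were nearest to asp-4 (both 0.29). T21H3.1, with a lipase domain (0.13), and C01B10.6 (0.16) were nearest to asp-3. The neuropeptide gene nlp-40 and the glutathione peroxidase gene gpx-5 were nearest to asp-2 (both 0.16), and spp-25 and the sterol transfer gene nlt-1 were nearest to asp-1 (both 0.30). cpr-3 was nearest to K06G5.1 and the serine carboxypeptidase gene ctsa-4.2 (both 0.26), and cpr-5 to the myosin light chain gene mlc-1 (0.24) and the ribosomal protein gene rpl-30 (0.26). The nearest to cpr-4 were F09F7.6 and the saposin-like gene spp-2 (both 0.56), and to cpr-1 nnt-1, with an alanine dehydrogenase domain (0.59), and nspc-20 (0.64). For cpr-4 and cpr-1, which vary most, the median gene lay at 1.53 and 1.82.

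**Figure D3:**
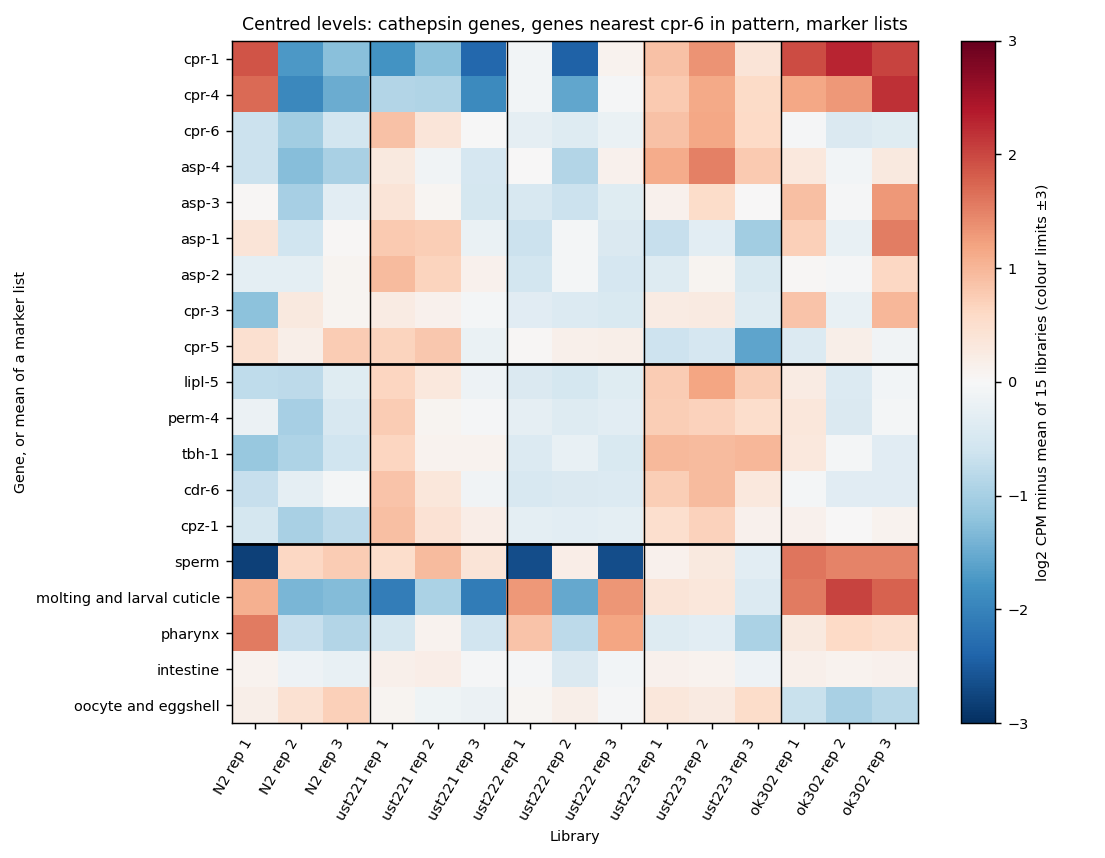
Log2 CPM of the 9 cathepsin genes (top), of the 5 genes nearest to cpr-6 in pattern (middle) and the mean of 5 marker lists (bottom), each minus its mean over the 15 libraries. cpr-1 and cpr-4 are high in N2 replicate 1 and in ok302, where the molting list is also high, but lie near their means in ust222 replicates 1 and 3, where that list stands at 1.31 and 1.32 above its mean, while cpr-6, asp-4 and the 5 nearest genes are high in ust223 and low in N2.

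Other proteases were read from lists. Of all 17217 tested genes, 1454 were higher and 2650 lower in ok302 against N2, and 177 and 131 in ust221 against N2. Against ok302, 1870 were higher and 1008 lower in ust221, and 1312 and 1592 in ust222. The counts in the lists below stand beside these. Of 6 tested cathepsin B-like genes outside the 9, 2 rose in ok302 against N2 and 0 fell. cpr-9, 26272 bases from cpr-1 on the chromosome, rose by 1.40 ± 0.31 (edgeR adjusted p = 0.00573; 1215 ± 148 to 3214 ± 1490 CPM). cpr-2, the other of these 2, had 178, 194 and 147 reads in ok302 but 27, 0 and 0 in N2, and at most 16 in any ust library (4.23 ± 1.43). It passed the filter on low counts only through ok302, where it is high. Its differences from ok302 are therefore a description and not a test. cpr-9 was also lower in ust222 than in ok302 (-1.26 ± 0.31, edgeR adjusted p = 0.0158). As a description, cpr-2 was lower in ust222 and in ust221 than in ok302 (-4.61 ± 1.48 in ust221). The list's median log2 fold change in ok302 against N2 was 0.44, beside 0.10 for all genes. In the 12 libraries the list median was 1.47, beside 0.39 for all genes.

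The other papain-family cathepsins numbered 11 tested genes. In ok302 against N2, 6 rose and 0 fell, with a list median of 0.83, beside 8.45% of all genes higher and a median of 0.10. Y40H7A.10 rose by 1.44 ± 0.23 (edgeR adjusted p = 0.00107). Both cathepsin Z genes rose, cpz-2 by 1.26 ± 0.19 (0.000638) and cpz-1, which is needed for molting, by 0.83 ± 0.20 (0.0104). tag-196 rose by 0.81 ± 0.16 (0.00312). In the 12 libraries the list median was 1.11 over 12 tested genes, beside 0.39 for all genes. The filter there asked for only 1 library, so a gene could enter through ok302 alone. In ust221 against N2, 2 rose and 0 fell, cpz-1 by 1.29 ± 0.20 (edgeR adjusted p = 0.0128; 443 ± 68.2 to 1087 ± 279 CPM) and Y40H7A.10 by 1.04 ± 0.23 (0.0394). cpz-1 stood at 1061, 1209 and 818 CPM in ust223, and at 516, 382 and 432 in N2.

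cpl-1, on the same list, is the cathepsin L gene that is essential in the embryo. It had 881, 909.9 and 1427 CPM in N2, 1084, 901 and 991 in ok302, and 3211, 2259.7 and 1559 in ust221. Every ust221 library lay above every N2 and ok302 library, while ust223, at 1509.8, 1649.6 and 1302 CPM, overlapped both ust221 and N2. The gene was higher in ust221 than in ok302 (1.24 ± 0.27, edgeR adjusted p = 0.0119), and against N2 the value was 1.13 ± 0.27 (0.0524). In the same comparison of ust221 with ok302, cpz-2 (-0.82 ± 0.18, 0.0129) and tag-329 (-5.29 ± 1.62, 0.0415) were lower. In ust222 against ok302, 5 of the 11 were lower and 0 higher, with Y40H7A.10 at -1.24 ± 0.23 (edgeR adjusted p = 0.00587), cpz-2 at -1.22 ± 0.19 (0.00254), R09F10.1 at -0.78 ± 0.23 (0.0338) and tag-196 at -0.76 ± 0.16 (0.0086).

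Of 8 tested aspartyl proteases outside the 9, 6 rose in ok302 against N2 and 0 fell, where 8.45% of all genes were higher. The list median was 1.56, that of the 9 members 0.86 and that of all genes 0.10, and the lists were not tested against each other. asp-17 rose by 2.90 ± 0.68 (edgeR adjusted p = 0.00816; 5.78 ± 3.39 to 43.0 ± 29.4 CPM) and asp-12 by 2.59 ± 0.61 (0.00894). In ok302 asp-12 had 19.2, 18.7 and 112 CPM, and in N2 7.63, 9.09 and 8.28. The size of its differences from ok302, here and below, therefore rests largely on ok302 replicate 3. asp-5 rose by 1.70 ± 0.40 (0.00872; 735 ± 290.5 to 2387 ± 1258 CPM) and asp-8 by 1.42 ± 0.37 (0.0143). In the 12 libraries, with 10 genes tested under the looser filter there, the list median was 1.92, again beside 0.39 for all genes. In ust221 against N2, 0 of 8 were called (median 1.03; 1 with edgeR on DESeq2 size factors). Against ok302, 3 were lower in ust221, asp-12 by -3.19 ± 0.63 (edgeR adjusted p = 0.00867), asp-5 by -1.36 ± 0.40 (0.0342) and asp-6 by -1.31 ± 0.42 (0.0488). In ust222, 6 were lower than in ok302, among them asp-12 (-3.70 ± 0.65, 0.00417), asp-17 (-2.66 ± 0.67, 0.0186), asp-5 (-1.69 ± 0.40, 0.0146) and asp-6 (-1.34 ± 0.42, 0.0446). No protease of these 3 lists was called lower in ok302 than in N2.

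The cystatins, protein inhibitors of papain-family cathepsins, split. cpi-1 had 38.6, 45.2 and 46.8 CPM in N2 and was higher in every library of the puf-8 alleles, with 189, 115 and 145 in ok302, 160.1, 130.3 and 71.4 in ust221, 104.5, 60.04 and 82.5 in ust222, and 184, 197 and 246 in ust223. It rose in ok302 (1.78 ± 0.29, edgeR adjusted p = 0.00108) and in ust221 (1.47 ± 0.29, 0.0273). For ust222 the value was 0.92 ± 0.28 (0.498), and for ust223, as a description, 2.26 ± 0.30. cpi-2, which acts in oogenesis, had 172, 157 and 191 CPM in N2 and 191, 144 and 183 in ok302 (-0.01 ± 0.21, edgeR adjusted p = 0.981). In ust221 it had 317, 249 and 162 CPM (0.48 ± 0.21, 0.207).

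Of 37 tested genes for lysosome membrane, acidification and hydrolases, 3 rose and 2 fell in ok302 against N2. Of all 17217 genes, 8.45% were higher there and 2650 genes were lower. The list median was -0.0048, beside 0.10 for all genes. The rising hydrolases were nuc-1, a DNase II (1.41 ± 0.22, edgeR adjusted p = 0.000873), and hex-1, a hexosaminidase (1.30 ± 0.21, 0.000931). The third was vha-6, an intestinal proton pump subunit (0.76 ± 0.24, 0.0363). laat-1, the lysine and arginine exporter of lysosomes, fell (-1.34 ± 0.20, edgeR adjusted p = 0.000666), as did cup-5, a mucolipin channel (-0.98 ± 0.25, 0.0122). In the 12 libraries 6 rose and 4 fell, where 26.2% of all genes were higher and 23.6% lower. In ust221 against N2, 3 rose and 0 fell, the pump subunits vha-6 (1.10 ± 0.24, edgeR adjusted p = 0.0388) and vha-5 (0.90 ± 0.19, 0.036) and hex-1 (1.03 ± 0.20, 0.0288), with a list median of 0.39 beside -0.09.

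Against ok302, 6 of the 37 lysosomal genes were higher in ust221 and 0 lower, beside 1870 and 1008 of all 17217 genes. Among the 6 were laat-1 (0.97 ± 0.20, edgeR adjusted p = 0.00952), vha-4 (0.76 ± 0.24, 0.0446), vha-12 (0.75 ± 0.21, 0.0309) and vha-5 (0.75 ± 0.19, 0.0205). That direction rests on the scaling. With library totals in place of TMM 0 were higher and 2 lower, and the list median went from 0.33 to -0.13, while that of all genes went from -0.11 to -0.56. The TMM factors of ust221 replicates 1 and 2, 0.688 and 0.765, were the lowest of the 15. In ust222 against ok302, laat-1 was higher (1.14 ± 0.20, edgeR adjusted p = 0.00414), and nuc-1 (-1.17 ± 0.22, 0.00575) and hex-1 (-0.71 ± 0.20, 0.0317) were lower. Of 5 genes linked to necrotic cell death beside the cathepsins, the ryanodine receptor unc-68 rose in ok302 (0.80 ± 0.24, edgeR adjusted p = 0.0262), was lower in ust222 than in ok302 (-0.93 ± 0.24, 0.0195), and none fell.

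**Figure D4:**
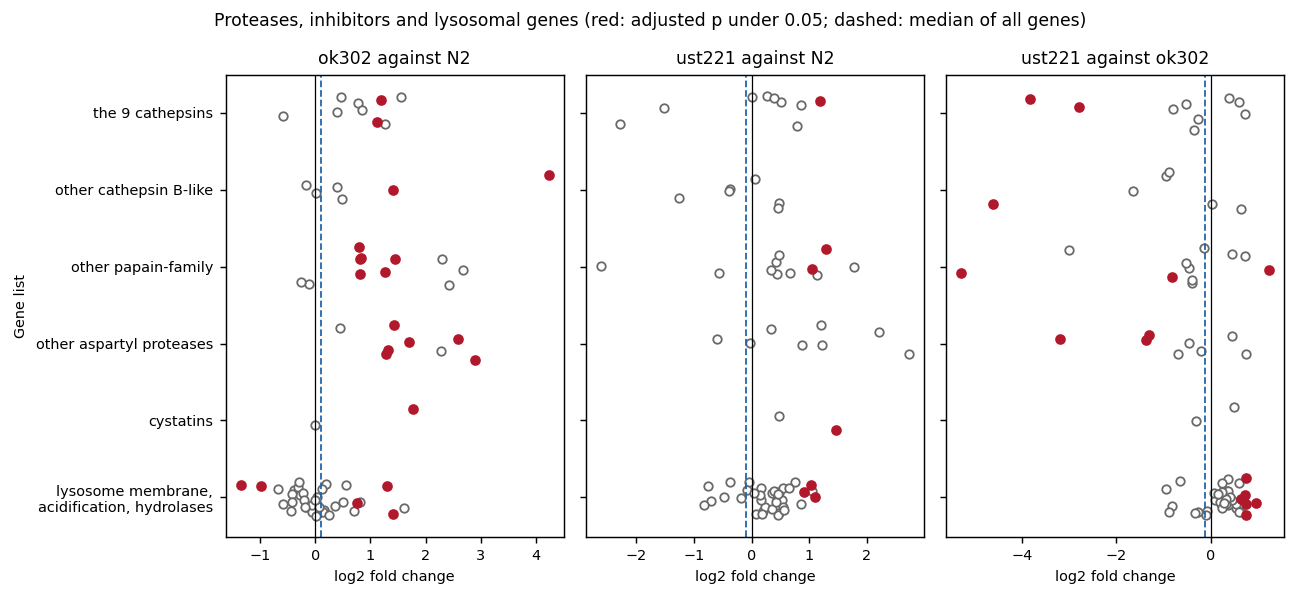
Log2 fold change of every tested gene in the 9 cathepsins and 5 further lists, for 3 comparisons; red points passed an adjusted p under 0.05, and the dashed line is the median of all tested genes. In ok302 against N2 the called proteases of the first 4 rows all lie to the right of zero, and the lysosomal row centres near it.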

How the data were processed

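Poly-A RNA of 15 young adult samples was sequenced by the study. The authors deposited 1 table of raw counts per gene, whole numbers per the file headers and values, with coordinates and lengths. The submitters' processing notes list HISAT2 2.0.5. For the counting program, strand setting, build and annotation, the sources used here give no name. All 15 library columns were used. None of the 105 pairs of libraries agreed within sampling noise (chi-square over genes, at least 13.6 per degree of freedom).

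The tests used edgeR 4.0.16 (R 4.3.3): filterByExpr by genotype (17217 genes), TMM (trimmed mean of M values) scaling, 1 quasi-likelihood model of all 15 libraries with a term for each genotype, Benjamini-Hochberg adjustment over all genes tested, and calls at an adjusted p under 0.05. The common biological coefficient of variation was 0.477. SE is the absolute log2 fold change over the square root of F. The steps were tested on simulated data. Alternatives were DESeq2 1.42.0, its size factors (RLE), library totals, other filters, only the compared libraries, 12 libraries (18343 genes tested), a term for the 3 libraries set apart, a replicate block, and each library left out.

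The members, gene lists, marker lists and the 3 libraries were chosen with earlier results of these data known. Named genes were all members, the nearest 5 genes for cpr-6 and 2 for each other member, up to 4 called genes per list and comparison by size, and cpl-1, cpi-1 and cpi-2. Symbols matched 44017 gene identifiers. F57F5.1, W07B8.1, Y65B4A.1 and asp-10 matched no symbol in use, and 7 listed proteases had too few counts to test. Sequences were not analysed here.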

Additional observations from a re-analysis of the deposited data

How the results depend on the processing

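Of the re-computed values for single members, 690 kept direction and side of the threshold, 39 passed it newly, 27 fell short of it and 48 turned sign. No called change turned sign. For ok302 against N2 the 2 members called became 4 with library totals, 4 in the 12 libraries, 4 with a term for the 3 libraries set apart and 0 with only the 6 libraries, and 0 to 4 on leaving out each library. For ust221 against N2 the 1 call became 3 with DESeq2 (2 higher and 1 lower), 0 with only the 6 libraries, 2 in the 12 libraries and 2 with the term, and 0 to 1 on leaving out each library. For ust221 against ok302 the 2 calls became 4 with the term, and 0 to 2 on leaving out each library. In the 12 libraries cpr-6 was called there as well. Other moves from 2 to 3 calls are not listed. For ust221 against ust222 the 0 calls became 1 with DESeq2, and 0 to 1 on leaving out each library. For ust222 against ok302, leaving aside the 12 libraries with their lone ust222 library, the 1 call became 4 with DESeq2 and 4 with library totals. It became 3 with only the 6 libraries and 5 with the term, and 0 to 3 on leaving out each library. For ust222 against N2 it stayed at 0. In the 12 libraries the share of all genes called went from 23.8% to 49.9% for ok302 against N2. For ust221 it went from 1.79% to 13.6% against N2 and from 16.7% to 41% against ok302. For the other settings that share is not given here. The counts are therefore not read as a result about the members, and the cause of these moves was not tested.

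Log2 fold changes that turned sign, with the value after the turn, were these. In the 12 libraries: asp-1 0.32, asp-2 0.16, asp-3 0.089 and cpr-4 0.25 in ust222 against N2, cpr-3 -0.0085 and cpr-4 0.58 in ust221 against N2, and cpr-1 0.63 and cpr-4 0.33 in ust221 against ust222. With the term for the 3 libraries: cpr-3 0.11 in ust222 against N2, cpr-4 0.14 and cpr-5 -0.00062 in ust221 against N2, and cpr-1 0.99 and cpr-4 0.96 in ust221 against ust222. With library totals: asp-2 -0.11 in ust221 against ok302, asp-3 0.015 in ust222 against N2, asp-4 -0.35 and cpr-5 -0.074 in ust221 against ust222, and cpr-5 -0.29 in ust221 against N2. With DESeq2, and equally with its size factors in edgeR: asp-4 -0.033 in ust221 against ust222, cpr-5 -0.0040 in ust221 against N2 and cpr-6 0.066 in ust222 against ok302. With no filter: asp-3 0.0069 in ust222 against N2, asp-4 -0.0028 in ust221 against ust222 and cpr-6 0.14 in ust222 against ok302. With a filter of CPM above 1 in 3 libraries: cpr-5 -0.014 in ust221 against N2 and cpr-6 0.034 in ust222 against ok302. With only the 6 libraries: asp-3 0.00096 in ust222 against N2 and asp-4 -0.032 in ust221 against ust222. On leaving out each library, values that turned sign ran from -0.67 to 0.23 for asp-1 in ust221 against ok302. In ust222 against N2 they ran from -0.57 to 0.14 for asp-1, -0.36 to 0.40 for asp-3, -1.49 to 1.33 for cpr-1, -0.33 to 0.025 for cpr-3 and -1.25 to 1.59 for cpr-4. In ust221 against N2 they ran from -0.0078 to 0.55 for cpr-3, -2.01 to 0.58 for cpr-4 and -0.14 to 0.26 for cpr-5. For asp-4 in ust221 against ust222 the range was -0.19 to 0.29, and for cpr-6 in ust222 against ok302 -0.090 to 0.38.

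No pairing by replicate number was evident: deviations of same-numbered libraries correlated from -0.64 to 0.78, and in no comparison were all 3 above 0.1. With 3 libraries per genotype, and 3 libraries of N2 and ust222 set apart, this check cannot exclude pairing. With the replicate block the counts of calls stayed at 2, 1, 0, 2, 1 and 0, and cpr-5 in ust221 against N2 turned to -0.047. The lowest CPM of a member in any library was 12.7.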
